A study of Mus musculus with 35 samples.

Results

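The genes described here are 44 genes of mitosis and chromosome segregation, a list of known cell division genes that was drawn up with earlier results of these data known. A gene was taken as measured when the array annotation gave it a probe set that names no other gene. That held for 42 of the 44, out of 12393 genes measured in this way, and the 42 had 77 probe sets between them. Ccnb1, the main mitotic cyclin, and Cdca8, a chromosomal passenger subunit, had no such probe set and were not analysed here. Of the 42, 21 had a single probe set and 21 had several, and a gene with several was read from the one whose mean over the 35 arrays was highest.

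The study measured RNA of whole mouse tracheal tissue on 35 Affymetrix arrays in 7 groups of 5. One group was untransplanted trachea, called native. The others were tracheal grafts harvested 4, 14 or 25 days after heterotopic transplantation, in which the trachea is placed at a site other than its own. The recipient was either MHC compatible with the donor (isografts) or MHC incompatible (allografts), MHC being the major histocompatibility complex by which T cells tell own from foreign tissue. Strains, ages, sex, the graft site and any treatment of the recipients are not given in the sources used here, and nor is whether each array held 1 animal or a pool. The p-values therefore measure the spread between these arrays, which may be partly technical.

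Values are GCRMA log2 intensities, a scale on which a difference of 1 is a 2-fold change and values of about 2 to 4 lie near background. A level on this scale belongs to its own probe set, so levels of different genes are not compared. "Rose", "fell" and "called" mean a Benjamini-Hochberg adjusted p under 0.05 in limma's test, adjusted over all 22626 probe sets of a comparison. Array medians ran from 5.07 to 5.30. The tissue carried its defining markers in native arrays, with mean levels of 14.4 for the club cell gene Scgb1a1, 9.20 for the basal cell keratin Krt5 and 11.1 for the cartilage collagen Col2a1. In day 25 allografts Scgb1a1 was at 4.02 and Krt5 at 3.68, near background, while Col2a1 was at 12.1. Replicate 5 of the native group and replicate 5 of the day 25 isografts correlated least with their own groups (median Pearson r over probe sets of 0.950 and 0.941, against at least 0.958 for the others). Skin marker genes were highest there within each group, at 5.52 against 2.98 to 3.32 in the other native arrays, and 5.08 against 3.44 to 3.90 in the other day 25 isografts. Counts that move by over 1.5 times without these arrays are given both ways. Skin levels were also high in other groups, reaching 5.03 in day 4 allografts and 4.935 in day 14 isografts. Skeletal muscle markers varied more, at 3.59 to 12.3 in day 25 allografts and 7.21 to 11.8 in native arrays.

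Dividing cells switch on a common set of genes late in the cycle. Cdk1 with its A- and B-type cyclins starts mitosis, Aurora and Polo kinases build the spindle, kinetochore proteins tie chromosomes to microtubules, and the checkpoint kinases hold the anaphase-promoting complex (APC/C) until every chromosome is attached. The APC/C with Cdc20 then destroys securin (Pttg1) and the cyclins, so that sister chromatids part and the cell divides. Most of these genes are held down in resting cells by the DREAM complex, which binds a short promoter element called the CHR, and many also carry CCAAT boxes, which bind NF-Y. In adult airway few cells divide at any time, and basal and secretory cells divide after injury.

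The promoter windows of 3 members are given as examples of these motifs. Each runs from 250 bases before to 50 bases after the annotated transcript start, is taken from RefSeq on GRCm38.p6, and is written 5′ to 3′ on the gene's own strand. Capitals mark matches on either strand to the CHR letters (TTTGAA or TTCGAA) and to the CCAAT box. The windows are those of Cdk1 (chr10:69352863-69353162, minus strand), Top2a (chr11:99024140-99024439, minus) and Cdc20 (chr4:118437294-118437593, minus). Cdk1 was chosen for its large rise after transplantation, Top2a for the largest difference between grafts at day 14, and Cdc20 for motifs close to the start.
Cdk1: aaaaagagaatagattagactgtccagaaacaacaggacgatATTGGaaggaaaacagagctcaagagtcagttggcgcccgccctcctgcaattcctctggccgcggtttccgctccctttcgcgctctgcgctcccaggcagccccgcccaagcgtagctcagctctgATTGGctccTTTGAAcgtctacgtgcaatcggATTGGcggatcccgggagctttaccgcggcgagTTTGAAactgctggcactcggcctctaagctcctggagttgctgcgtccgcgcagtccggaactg
Top2a: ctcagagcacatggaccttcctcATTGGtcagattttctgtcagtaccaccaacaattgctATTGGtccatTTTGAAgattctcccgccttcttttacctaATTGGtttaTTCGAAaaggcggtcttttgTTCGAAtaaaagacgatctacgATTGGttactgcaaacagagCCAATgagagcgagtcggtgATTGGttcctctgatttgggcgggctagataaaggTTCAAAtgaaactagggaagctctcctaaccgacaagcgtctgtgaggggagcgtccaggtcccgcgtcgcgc
Cdc20: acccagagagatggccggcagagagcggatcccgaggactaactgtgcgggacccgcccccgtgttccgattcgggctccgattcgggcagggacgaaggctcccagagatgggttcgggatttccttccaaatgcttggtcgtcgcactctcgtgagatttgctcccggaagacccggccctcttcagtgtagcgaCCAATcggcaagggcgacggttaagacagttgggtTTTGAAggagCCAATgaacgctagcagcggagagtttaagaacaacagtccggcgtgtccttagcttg
The Cdk1 window held 2 CHR and 3 CCAAT matches, that of Top2a 4 and 6, and that of Cdc20 1 and 2.

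Of the 44 members, 37 were in the RefSeq promoter table, 35 of them measured. A CHR match lay in the window of 73.0% of the 37, against 14.7% of the 9888 genes measured on the arrays that have a window and 19.4% of all 27025 windows. A CCAAT match lay in 73.0% of the members' windows, against 38.1% and 37.9%. Both together lay in 64.9%, against 5.96% and 7.70%. A CHR match within 50 bases of the start was found in 64.9%, against 3.62% and 5.29%. The members with neither motif were Nuf2, Nusap1, Ncaph, Melk, Mad2l1, Pttg1 and Birc5, which says only that these letters are not in those windows. For 7 of the 37 the start in the table lay over 100 bases inside the gene's outermost annotated end. The distance was 1482 bases for Pttg1 and 3852 for Kif2c, the largest. Windows at that end were not read for those 7. A CHR match lay in 70.0% of the other 30 windows. These are counts of letters, with no test and no evidence of binding.

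**Figure D1:**
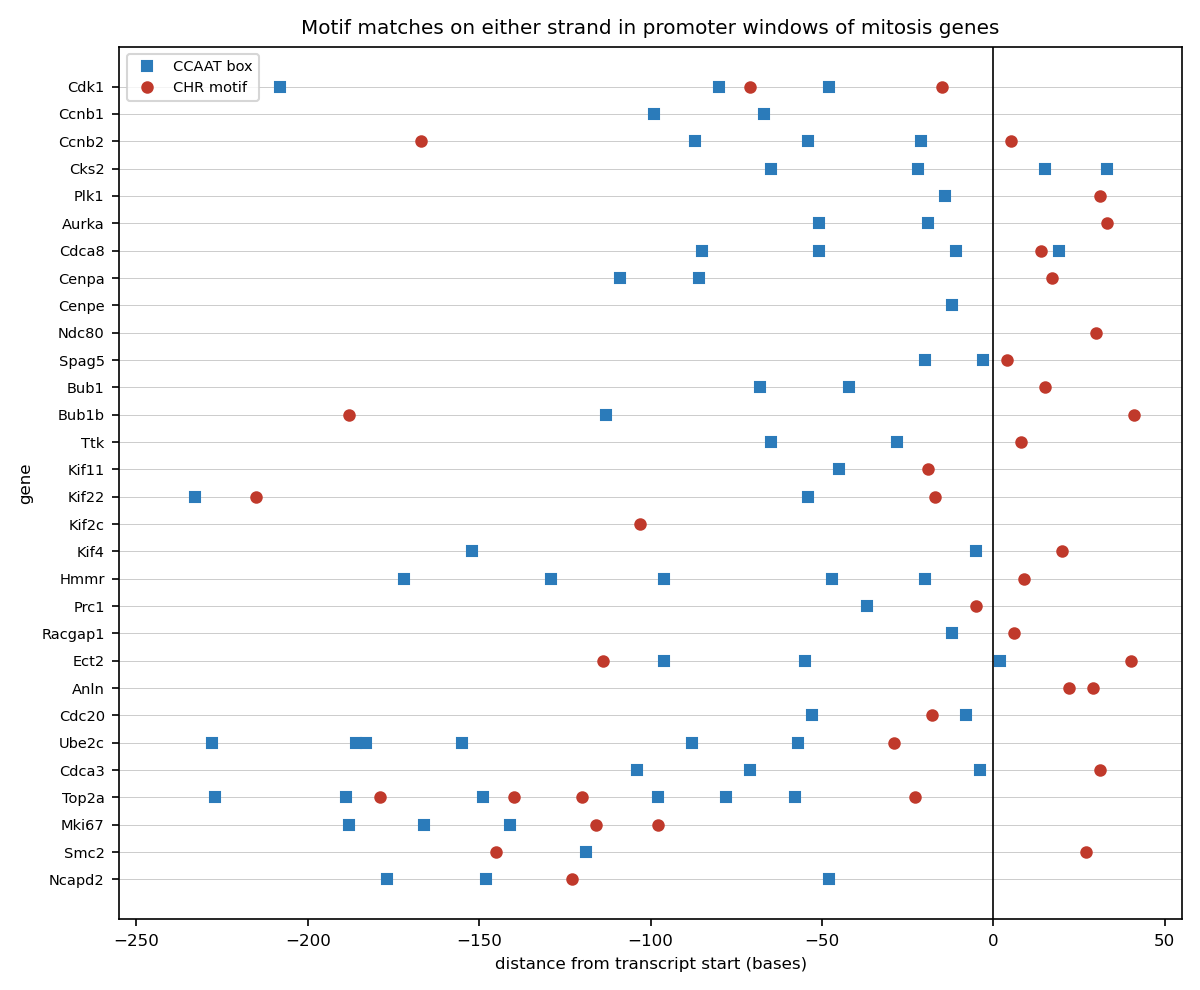
Positions of CHR matches (red circles) and CCAAT matches (blue squares) on either strand in the promoter windows of the members with at least 1 match. The horizontal axis is the distance in bases from the annotated transcript start, and each row is 1 gene. The CHR matches gather within 50 bases of the start, mostly on its downstream side, and the CCAAT matches lie mostly upstream of it.

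Over the groups, the members were low in native trachea, high in both grafts at day 4, and then parted by graft. The mean level of the 42 members ran from 4.00 to 4.86 in the native arrays. It ran from 6.72 to 7.16 in day 4 isografts and from 6.91 to 7.25 in day 4 allografts, so those groups overlapped each other and neither met the native arrays. At day 14 it was 4.53 to 4.87 in isografts and 5.56 to 6.31 in allografts, with no overlap. At day 25 it was 4.45 to 5.72 in isografts and 4.67 to 5.62 in allografts, and the groups overlapped again. The highest group mean was that of day 4 allografts for 26 members and day 4 isografts for 16, and the lowest was native for 31, day 14 isograft for 9 and day 25 allograft for 2. In native trachea 10 of 42 members had a group mean of at least 5, compared with 38 and 40 in the day 4 isografts and allografts. The arrays hold RNA of whole tissue, in which more dividing cells and more of these RNAs per cell cannot be told apart.

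**Figure D2:**
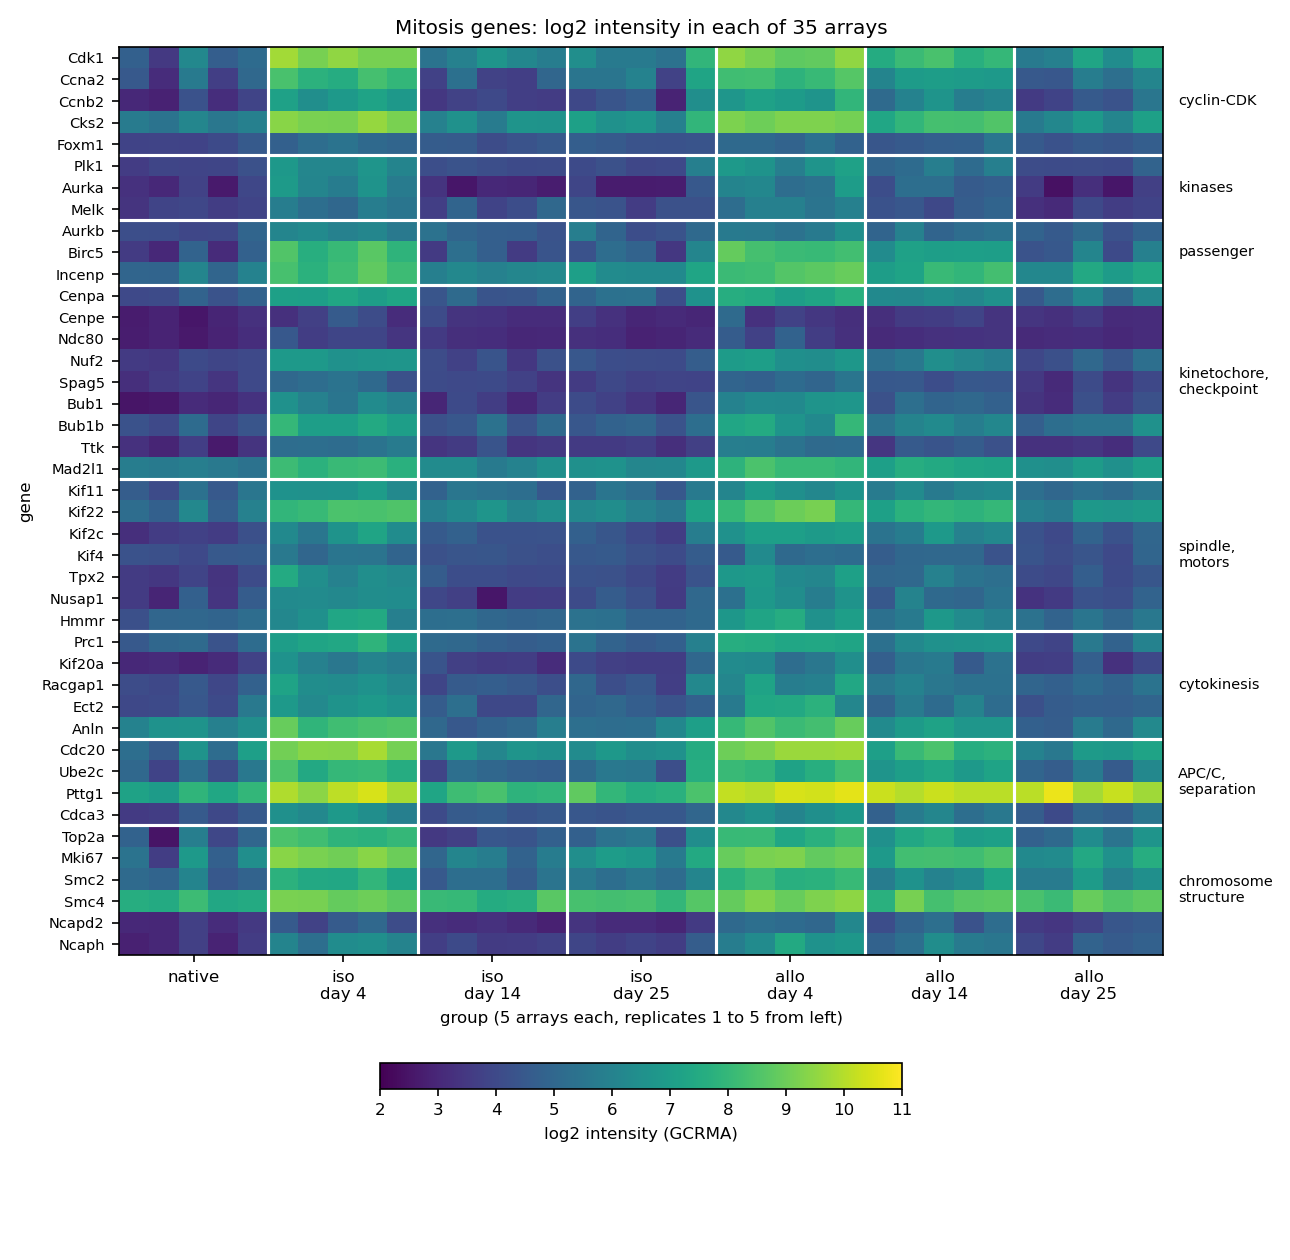
Log2 intensity of each of the 42 measured members (rows, grouped by role) in each of the 35 arrays (columns, 5 per group in replicate order). Colour runs from dark (2, near background) to yellow (11). The day 4 columns of both grafts are brighter than the native columns for nearly every gene, and the day 14 allograft columns are intermediate. The Pttg1 row stays at 9.73 to 10.7 in the day 25 allografts.

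The comparison of day 4 grafts with native trachea gives the members' levels early after transplantation. All 42 members rose in isografts and all 42 rose in allografts. The background was wide: 28.1% of all genes rose in day 4 isografts and 15.6% in day 4 allografts. The median difference over the members was 2.48 on the log2 scale (5.58-fold) in isografts and 2.76 (6.77-fold) in allografts, against 0.11 and 0.06 over all genes. These comparisons share the same 5 native arrays.

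Cdk1, the kinase that drives entry into mitosis, read 4.75, 3.49, 6.19, 4.70 and 5.15 in the native arrays. It read 9.74, 9.15, 9.5, 9.17 and 9.14 in day 4 isografts and 9.51, 9.17, 8.78, 8.83 and 9.49 in day 4 allografts. Every graft array lay above every native one. The difference was 4.48 in isografts (22.3-fold, SE 0.40, adjusted p = 4.79e-10) and 4.30 in allografts (SE 0.40, adjusted p = 7.98e-10).

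Birc5 (survivin), which targets the chromosomal passenger complex to centromeres, read 3.58, 3.05, 4.87, 3.10 and 4.78 in native trachea. In day 4 isografts it read 8.55, 7.65, 8.05, 8.70 and 7.85, and in allografts 8.86, 8.35, 8.12, 8.08 and 8.29. It rose by 4.28 (SE 0.44, adjusted p = 5.55e-09) and by 4.46 (SE 0.44, adjusted p = 1.75e-09), again with no overlap. The next largest rises in isografts were those of Mki67, the Ki-67 antigen that coats mitotic chromosomes (3.79, SE 0.42, adjusted p = 2.16e-08), and Top2a, the topoisomerase that untangles sister DNA (3.65, SE 0.44, adjusted p = 1.03e-07). In allografts they were those of Ccna2, cyclin A2 (3.79, SE 0.46, adjusted p = 1.25e-07), and Cdc20, the APC/C activator (3.70, SE 0.36, adjusted p = 1.85e-09).

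Mki67 read 5.42, 3.64, 6.82, 4.75 and 6.44 in native arrays, a spread of over 3 on the log2 scale, and 8.97 to 9.41 in day 4 isografts. Top2a was as uneven in native trachea, at 4.84, 2.49, 5.86, 3.90 and 4.97, and reached 7.76 to 8.46 in day 4 isografts. The checkpoint kinase Bub1 was near background in native trachea, at 2.52, 2.58, 3.11, 2.96 and 3.33, and rose by 3.16 in isografts (SE 0.26) and 3.48 in allografts (SE 0.26). Plk1, the Polo kinase, read 3.59 to 4.22 in native arrays and rose by 2.47 (SE 0.28) and 2.73 (SE 0.28). Cdc20 read 5.26, 4.57, 6.64, 5.18 and 7.09 in native arrays against 9.07 to 9.81 in day 4 isografts, a rise of 3.61 (SE 0.36). Kif11, the motor that pushes spindle poles apart, rose by 1.77 (SE 0.25) in isografts and 1.64 (SE 0.25) in allografts, and Aurkb, the kinase of the passenger complex, by 1.81 (SE 0.27) and 1.55 (SE 0.27). The smallest rises in isografts were those of Cenpe, a kinetochore motor (0.89, SE 0.27), and Ndc80, the microtubule-binding kinetochore subunit (0.99, SE 0.20), whose values reached at most 5.10 and 4.83 in any array. Folds from values near background rest on the authors' background model.

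**Figure D3:**
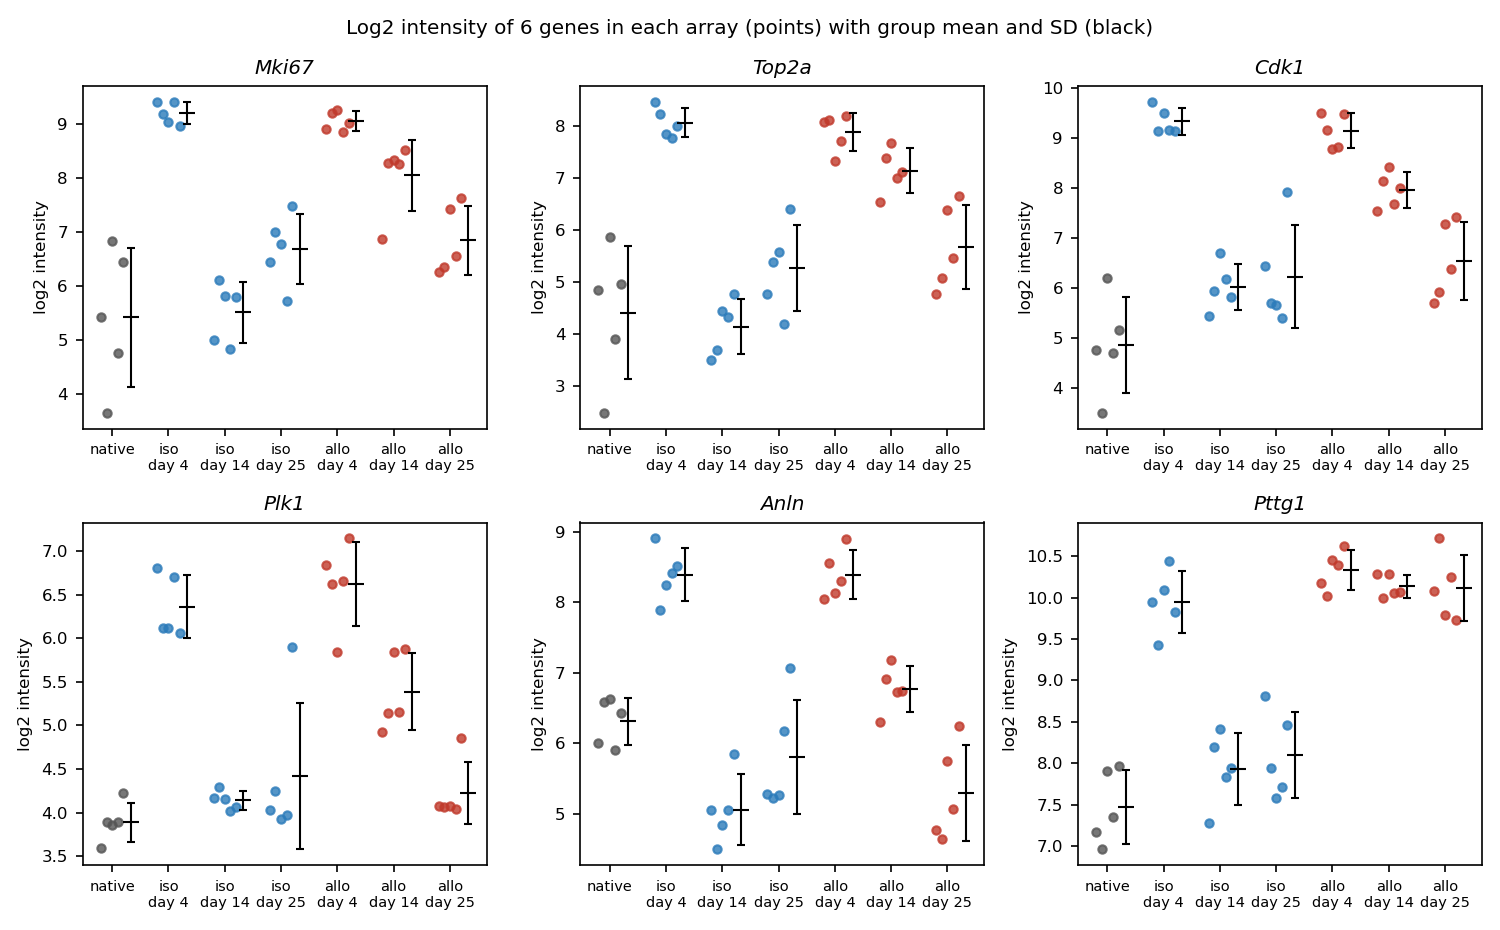
Log2 intensity of Mki67, Top2a, Cdk1, Plk1, Anln and Pttg1 in each array (points), with group mean and SD (black, n = 5 arrays per group). The vertical axes differ between panels and do not start at 0. In every panel the day 4 grafts lie above native trachea. At day 14 the allograft arrays lie above all isograft arrays, and at day 25 that holds in the Pttg1 panel alone.

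Allografts and isografts were compared at each day. Strains and any treatment of the recipients are not given, so other differences between recipients cannot be told apart from the MHC mismatch. At day 4, 0 of 42 members were called by limma, beside 0.339% of all genes in either direction. The median difference over the members was 0.10 on the log2 scale, with 26 of 42 positive. Ncapd2, a condensin subunit, had the lowest adjusted p of the 42, with a difference of 0.93 (SE 0.25, adjusted p = 0.177). Its isograft arrays read 4.54, 3.77, 4.58, 5.06 and 4.09 and its allograft arrays 5.08, 5.28, 5.13, 5.02 and 6.17, so the groups just overlapped. The 95% intervals of the 42 differences lay between -1.07 and 1.45, so a difference of that size in a single gene could go uncalled with 5 arrays per group. One further probe set of Cdc20, with a mean near background of 2.44, was lower in allografts by 0.65 (SE 0.12, adjusted p = 0.00408), and the probe set that represents Cdc20 differed by 0.10 (SE 0.36).

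At day 14 the grafts parted. Of the 42 members, 32 were higher in allografts and 0 were lower, against a background of 6.85% of all genes higher and 6.96% lower. The median difference was 1.43 on the log2 scale (2.68-fold), against -0.02 over all genes. All 42 differences were positive. Of the 77 probe sets 41 were higher and 0 lower. In a refit of the 13678 probe sets that reached log2 5 in 5 arrays, 18.4% were called in either direction. In that refit 32 members were called, all higher. Among the 35 of the members' 77 that do not represent their gene, 18 were not called although their gene was. Of those 18, 15 had a mean under 4 over all arrays. Another 9 of the 35 were called higher. Among the 18, that of Nusap1 differed by -0.19 against 1.71 for the representing one, and that of Bub1 by -0.05 against 1.41. Those of Kif2c differed by 0.10, 0.27 and 0.07 against 1.60. Those of Kif22 differed by 0.57 and 0.18 against 1.44, with means of 4.66 and 4.26. The gene differences that follow for day 14 are those of the representing probe sets.

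Top2a had the largest difference. It read 3.50, 3.70, 4.44, 4.34 and 4.76 in day 14 isografts and 6.53, 7.38, 7.66, 7.0 and 7.12 in day 14 allografts, with a clear gap between them, and was higher by 2.99 (7.95-fold, SE 0.44, adjusted p = 6.73e-06). Birc5 read 3.52, 5.29, 4.73, 3.58 and 4.34 in isografts against 6.33, 7.14, 7.05, 7.09 and 7.06, a difference of 2.64 (SE 0.44, adjusted p = 4.69e-05). Mki67 read 4.99, 6.11, 5.81, 4.82 and 5.79 against 6.87, 8.28, 8.32, 8.25 and 8.51, a difference of 2.54 (SE 0.42, adjusted p = 3.94e-05). Replicate 1 was the lowest allograft array for all 3 genes, and still lay above each isograft array. Ccna2 was higher by 2.47 (SE 0.46, adjusted p = 2.62e-04).

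Cdk1 read 5.44, 5.94, 6.71, 6.18 and 5.82 in day 14 isografts and 7.54, 8.15, 8.43, 7.68 and 8.01 in allografts, a difference of 1.94 (SE 0.40, adjusted p = 9.35e-04). Plk1 lay between 4.02 and 4.30 in isografts and at 4.93, 5.14, 5.84, 5.15 and 5.88 in allografts, a difference of 1.25 (SE 0.28, adjusted p = 0.00214). Bub1 read 2.98, 4.02, 3.64, 3.02 and 3.6 against 4.24, 5.30, 4.90, 5.04 and 4.80, a difference of 1.41 (SE 0.26, adjusted p = 2.72e-04). None of these genes had overlapping groups. Cdc20 read 5.58, 6.86, 6.13, 6.64 and 6.50 against 7.07, 8.10, 8.46, 7.60 and 7.77 (1.46, SE 0.36, adjusted p = 0.00586). Kif11 read 4.84, 5.54, 5.38, 5.24 and 4.47 against 5.73, 6.35, 5.71, 6.10 and 6.26 (0.94, SE 0.25, adjusted p = 0.0109). Aurkb was not called: its isograft arrays read 5.40, 4.92, 4.72, 4.68 and 4.29, its allograft arrays 4.89, 5.97, 4.89, 5.21 and 5.39, and the groups overlapped (0.47, SE 0.27, adjusted p = 0.367).

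By role, each group of members held called genes at day 14. Among the cyclin-CDK genes and their activators, Cdk1, Ccna2, Ccnb2 (2.24) and the Cdk subunit Cks2 (1.79) were higher, and Foxm1, the transcription factor of late cycle genes, was not called (0.37, SE 0.18). Of the mitotic kinases, Plk1 and Aurka (1.87) were higher and Melk was not (0.14, SE 0.24). Of the passenger complex, Birc5 and Incenp, its scaffold (1.65), were higher and Aurkb was not. Of 9 kinetochore and checkpoint genes 5 were higher, among them Nuf2, a subunit of the Ndc80 complex (1.89), and Cenpa, the centromeric histone (1.74). The others were Bub1 (1.41), the checkpoint kinase relative Bub1b (1.25) and Mad2l1, which inhibits the APC/C until chromosomes attach (1.15). The 4 not called there were Cenpe, Ndc80, Spag5 and Ttk, with differences from 0.05 to 0.60.

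Of 7 spindle and motor genes 6 were higher, with Nusap1, which bundles spindle microtubules (1.71), the largest. Kif2c, which removes wrong microtubule attachments (1.60), the chromokinesin Kif22 (1.44), the spindle assembly factor Tpx2 (1.17), Kif11 (0.94) and Hmmr, a spindle-bound hyaluronan receptor (0.93), followed, and another chromokinesin, Kif4, was not called (0.52, SE 0.22). Of 5 cytokinesis genes 4 were higher, among them Anln (anillin), a scaffold of the contractile ring (1.71). Kif20a, a motor of the central spindle (1.5), Prc1, which bundles its microtubules (1.41), and Racgap1, a subunit of centralspindlin (1.21), were the others. Ect2, which activates RhoA at the cleavage site, was not called (0.85, SE 0.34). The APC/C and sister separation genes Cdc20, Ube2c, the APC/C's ubiquitin-conjugating enzyme (2.30), Pttg1 (2.21) and Cdca3 (1.08) were all 4 higher. Of 6 genes of chromosome structure 5 were higher. Besides Top2a and Mki67 these were the condensin subunits Ncaph (1.84), Ncapd2 (1.65) and Smc2 (1.39), and Smc4, a condensin core subunit, was not called (0.51, SE 0.22). The members not called were thus spread over the roles, with 0 or 1 in every role except the kinetochore and checkpoint group.

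The mean levels of the role groups were highest in the day 4 grafts. The cyclin-CDK genes had mean levels of 3.75 to 5.22 in native arrays, 7.56 to 7.89 in day 4 isografts, 4.64 to 5.23 in day 14 isografts and 6.09 to 7.04 in day 14 allografts. In day 25 allografts they lay at 4.80 to 6.18, and in day 25 isografts at 4.45 to 6.78, where replicate 5 was the highest. The kinetochore and checkpoint genes went from 3.56 to 3.97 in native arrays to 5.69 to 6.07 in day 4 isografts, and lay at 3.83 to 4.25 in isografts and 4.72 to 5.21 in allografts at day 14. The chromosome structure genes lay at 4.67 to 5.22 in day 14 isografts against 5.98 to 7.06 in allografts. The cytokinesis genes lay at 4.36 to 4.62 against 5.36 to 6.07. In each of these the day 14 groups were apart. At day 25 the APC/C and separation genes lay at 5.72 to 7.14 in isografts and 6.25 to 7.17 in allografts, and the cytokinesis genes at 4.51 to 5.79 and 4.30 to 5.30, with overlap in both.

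**Figure D4:**
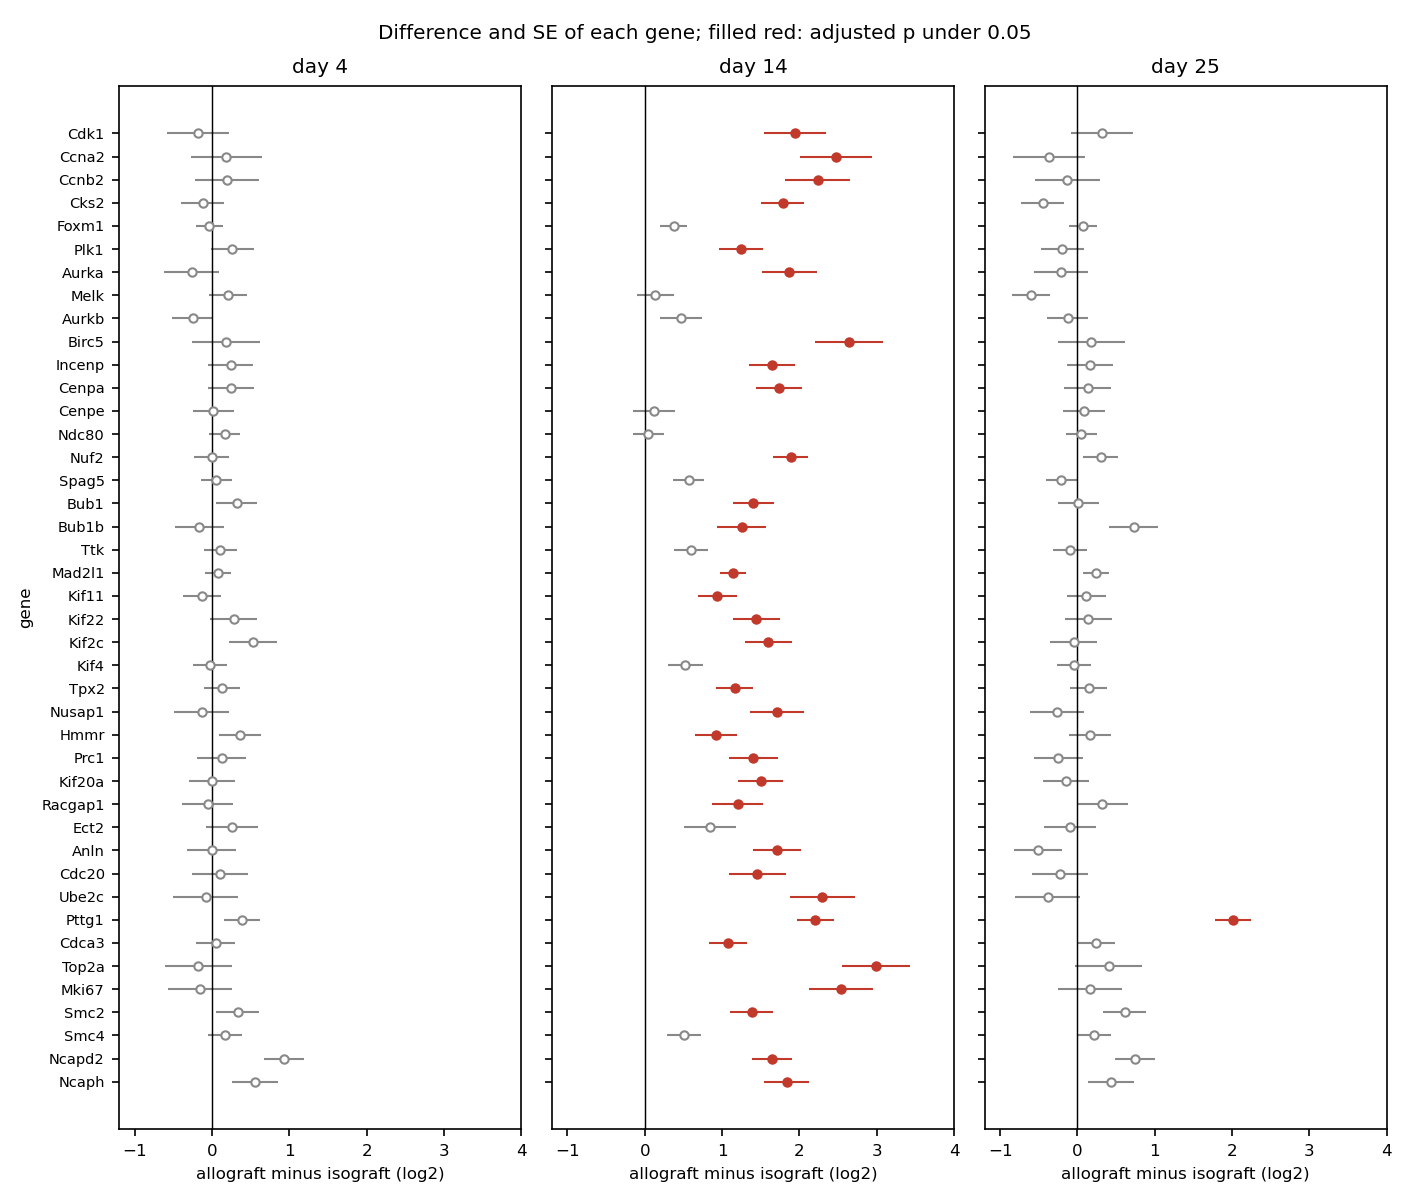
Allograft minus isograft difference on the log2 scale (points) with its standard error (lines) for each of the 42 members at days 4, 14 and 25, from limma's fit to all 35 arrays. Filled red points have an adjusted p under 0.05. There are 0 red points at day 4, 32 at day 14 and 1, Pttg1, at day 25.

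At day 25 the members' median difference was 0.08, with 24 of 42 positive. Of the 42, 1 was higher in allografts, beside 4.49% of all genes, and 0 were lower. The one called was Pttg1, securin, the inhibitor of separase. Its isograft arrays read 8.81, 7.94, 7.58, 7.71 and 8.46 and its allograft arrays 10.1, 10.7, 9.79, 10.2 and 9.73, with no overlap, and the difference was 2.01 (4.04-fold, SE 0.24, adjusted p = 1.27e-07). Its other probe sets were also higher, by 1.91 (SE 0.37) and 0.66 (SE 0.18). The latter had a mean near background, 3.70 over all arrays, and was not called at day 14 (0.38, limma adjusted p = 0.205). Mki67 read 6.43, 6.99, 6.78, 5.72 and 7.47 in isografts and 6.26, 6.34, 7.43, 6.56 and 7.62 in allografts (0.17, SE 0.42). For Ncapd2 the difference was 0.74 (SE 0.25, adjusted p = 0.0626). Without replicate 5 of the day 25 isografts, or without replicate 1 or 2 of the day 25 allografts, Ncapd2 was called too and the count was 2. The same count of 2 was found without both arrays that stood apart.

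Pttg1 was not called between days in allografts. It read 10.0 to 10.6 at day 4, 9.99 to 10.3 at day 14 and 9.73 to 10.7 at day 25, against 6.96 to 7.96 in native trachea. The change between days 4 and 14 in allografts was -0.20 (SE 0.24, adjusted p = 0.741) and that between days 14 and 25 was -0.02 (SE 0.24, adjusted p = 1.00). In isografts it fell by 2.02 between days 4 and 14 (SE 0.24, adjusted p = 3.77e-07). These values between days are those of the representing probe set alone. It is of the _s_at type, which can also bind transcripts of related genes. The probe sets that represent Cks2, Prc1, Aurkb and Spag5 are of this type too. Those that represent Cdc20, Incenp, Kif22, Kif2c, Ncaph and Foxm1 are of the _x_at type, which has the same limit.

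In isografts the members fell after day 4. From day 4 to day 14, 41 of 42 members fell and 0 rose, beside 7.58% of all genes that fell, with a median of -2.26 over the members. Top2a fell by 3.91 (15-fold, SE 0.44, adjusted p = 1.48e-07), Birc5 fell by 3.87 (SE 0.44, adjusted p = 1.83e-07), Ccna2 fell by 3.72 (SE 0.46, adjusted p = 8.71e-07) and Mki67 fell by 3.70 (SE 0.42, adjusted p = 1.67e-07). Cenpe, low throughout, was the one not called (-0.36, SE 0.27). From day 14 to day 25, 0 members were called by limma and 0% of all genes. The largest differences, not called, were those of Ccna2 (1.30, SE 0.46, adjusted p = 0.771), Mki67 (1.18, SE 0.42, adjusted p = 0.771) and Top2a (1.12, SE 0.44, adjusted p = 0.771).

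Compared with native trachea, few members differed in late isografts. At day 14, 3 were higher (Cdk1 by 1.16, SE 0.40, adjusted p = 0.0329; Kif22, a chromokinesin, by 0.91, SE 0.30, adjusted p = 0.0275; and the checkpoint protein Mad2l1 by 0.49, SE 0.17, adjusted p = 0.0308), beside 18.3% of all genes. Anln alone was lower, by 1.25, beside 12.7% of all genes. The count called moved from 4 to 10 without native replicate 5, to 2 without native replicate 1, 2 or 4 or day 14 isograft replicate 2, and to 11 without both arrays that stood apart. With each array centred on its own median, 15 members were higher and 1 lower at day 14. At day 25, 7 members were higher and 0 lower, beside 6.46% of all genes higher. Cdk1 (1.37, SE 0.40, adjusted p = 0.0273), Incenp (1.28, SE 0.30, adjusted p = 0.00456), Mki67 (1.26, SE 0.42, adjusted p = 0.0475) and Cks2 (1.08, SE 0.28, adjusted p = 0.0108) led, followed by Bub1, Mad2l1 and Smc4. That count was 14 without native replicate 5, 12 without day 25 isograft replicate 4, 4 without day 25 isograft replicate 2, and 3 without native replicate 1, 2 or 4 or day 25 isograft replicate 1 or 5.

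In allografts calls were made in both intervals, for fewer than all members. From day 4 to day 14, 19 of 42 members fell and 0 rose, beside 3.04% of all genes that fell, with a median of -1.0, and 23 were not called. Cdc20 fell by 1.65 (SE 0.36, adjusted p = 0.00453), Anln by 1.62 (SE 0.31, adjusted p = 0.00123), Bub1 by 1.52 (SE 0.26, adjusted p = 3.14e-04) and the condensin core subunit Smc2 by 1.49 (SE 0.28, adjusted p = 7.98e-04). Without day 14 allograft replicate 1, whose mean over the members was the lowest of its group at 5.56 against 6.09 to 6.31, 11 were called. From day 14 to day 25 another 19 calls were made, all falls, beside 1.13% of all genes that fell, with a median of -1.02. Birc5 fell by 1.98 (SE 0.44, adjusted p = 0.00868), Ube2c by 1.82 (SE 0.42, adjusted p = 0.0125), Aurka by 1.71 (SE 0.35, adjusted p = 0.00399) and Cks2 by 1.70 (SE 0.28, adjusted p = 2.43e-04). The count was 9, 10 and 11 without replicate 1, 2 and 4 of the day 25 allografts.

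Day 14 allografts were still well above native trachea, with 38 of 42 members higher and 0 lower, beside 20.3% of all genes higher, and a median of 1.55 (2.94-fold). Cdk1 led at 3.11 (SE 0.40, adjusted p = 2.86e-07), with Birc5 at 3.06 (SE 0.44, adjusted p = 1.49e-06), Top2a at 2.73 (SE 0.44, adjusted p = 8.98e-06) and Pttg1 at 2.67 (SE 0.24, adjusted p = 1.42e-10). Cenpe, Ndc80, Kif4 and Anln were not called. At day 25, 17 members were higher and 1 lower, beside 14.3% of all genes higher and 14.4% lower, and the median was 0.71. Pttg1 led at 2.65 (SE 0.24, adjusted p = 1.54e-10), with Cdk1 at 1.68 (SE 0.40, adjusted p = 0.00201), Incenp at 1.44 (SE 0.30, adjusted p = 3.44e-04) and Mki67 at 1.43 (SE 0.42, adjusted p = 0.0103). The 6 genes of chromosome structure were all among the 17, and the cytokinesis genes gave 0 of them.

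Anln was the member called below native trachea. It read 6.0, 6.59, 6.63, 5.91 and 6.43 in native arrays and rose to 7.89 to 8.91 in day 4 isografts. In day 14 isografts it read 5.06, 4.49, 4.84, 5.05 and 5.85, all below the native arrays, a fall of 1.25 against them (SE 0.31, adjusted p = 0.00566). In day 25 allografts it read 4.77, 4.64, 5.75, 5.07 and 6.24, which overlapped the native arrays, and was lower by 1.02 (SE 0.31, adjusted p = 0.0161). In day 14 allografts it read 6.30 to 7.18 and did not differ by the test (0.46, SE 0.31, adjusted p = 0.230).

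The change of the allograft-isograft difference between days was tested directly as an interaction. Between days 4 and 14 it was called for 16 members, all higher, beside 1.57% of all genes, with a median of 1.21. Top2a had the largest change, 3.17 (SE 0.62, adjusted p = 0.00159), followed by Mki67 (2.70, SE 0.59, adjusted p = 0.00505), Birc5 (2.46, SE 0.62, adjusted p = 0.0174) and Ube2c (2.38, SE 0.60, adjusted p = 0.0169). Pttg1 was among the 16 (1.82, SE 0.34). Without day 4 isograft replicate 1, day 4 allograft replicate 4 or day 14 allograft replicate 3 the count was 10.

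Between days 14 and 25 the difference shrank for 7 members, beside 0.403% of all genes, with a median of -1.35 and 41 of the 42 changes negative. Ccna2 changed by -2.84 (SE 0.66, adjusted p = 0.0314), Ube2c by -2.68 (SE 0.60, adjusted p = 0.0215), Top2a by -2.59 (SE 0.62, adjusted p = 0.0415) and Cks2 by -2.24 (SE 0.39, adjusted p = 0.00179), and Anln, Nuf2 and Aurka were the others. For Pttg1 the change was -0.19 (SE 0.34, adjusted p = 0.990). The count moved with single arrays. It was 3 without day 14 allograft replicate 3 or day 25 allograft replicate 4. It was 4 without day 14 isograft replicate 3 or 4, day 25 isograft replicate 5, day 14 allograft replicate 2 or day 25 allograft replicate 2, and 4 without both arrays that stood apart. It was 14 without day 25 isograft replicate 4, 15 without day 14 allograft replicate 1 and 16 without day 25 allograft replicate 5.

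Other genes of the cycle were set beside the members from lists of their names. Of 93 further mitosis genes 70 were measured. At day 4, 52 of the 70 rose in isografts and 46 in allografts against native trachea, beside 28.1% and 15.6% of all genes. Between the grafts at day 14, 17 were higher in allografts and 1 lower, beside 6.85% and 6.96% of all genes, with a median of 0.24. The largest were Cdca5, sororin, which stabilises cohesin (2.51, SE 0.38, adjusted p = 1.32e-05), Cep55, an abscission scaffold (2.02, SE 0.33, adjusted p = 4.17e-05), the condensin II subunit Ncapg2 (1.95, SE 0.21, adjusted p = 3.58e-08) and Trip13, which remodels checkpoint complexes (1.61, SE 0.31, adjusted p = 2.90e-04). The centrosomal kinase Nek2 was lower (-0.85, SE 0.19, adjusted p = 0.00228). At day 25, Ncapg2 (1.17, SE 0.21, adjusted p = 1.67e-04) and Cdc26, an APC/C subunit (0.48, SE 0.15, adjusted p = 0.0331), were higher, and 0 were called at day 4 between the grafts. Of all genes 4.49% were higher at day 25, and 0.339% were called in either direction at day 4.

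Of 53 DNA replication genes 48 were measured. Against native trachea 41 rose in day 4 isografts and 40 in day 4 allografts, beside 28.1% and 15.6% of all genes. In the comparison of grafts at day 14, 21 of the 48 were higher and 0 lower, beside 6.85% and 6.96% of all genes, with a median of 0.50. Their mean level was 5.52 to 5.61 in day 14 isografts and 5.95 to 6.39 in day 14 allografts. Of 20 measured G1/S cyclins and E2F factors, 9 rose and 4 fell in day 4 isografts against native trachea, beside 28.1% and 20% of all genes. Skp2, a ubiquitin ligase subunit for cyclin-dependent kinase inhibitors, was the one called between grafts at day 14 (1.1, SE 0.25, adjusted p = 0.00297). At day 25, Ccnd1, cyclin D1, was lower in allografts (-0.89, SE 0.20, adjusted p = 0.00193), as was E2f5 (-0.65, SE 0.18, adjusted p = 0.0123). In the refit of 13678 probe sets that reached log2 5 in 5 arrays, 15% were called in either direction at day 25. Of 7 cyclin-dependent kinase inhibitors, 1 was called between grafts at day 14, Cdkn1c, which was lower in allografts (-1.32, SE 0.30, adjusted p = 0.00267), and 0 at day 25. Over all genes 6.85% were higher and 6.96% lower at day 14, so single calls in lists of 20 and 7 genes do not set these lists apart.

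**Figure D5:**
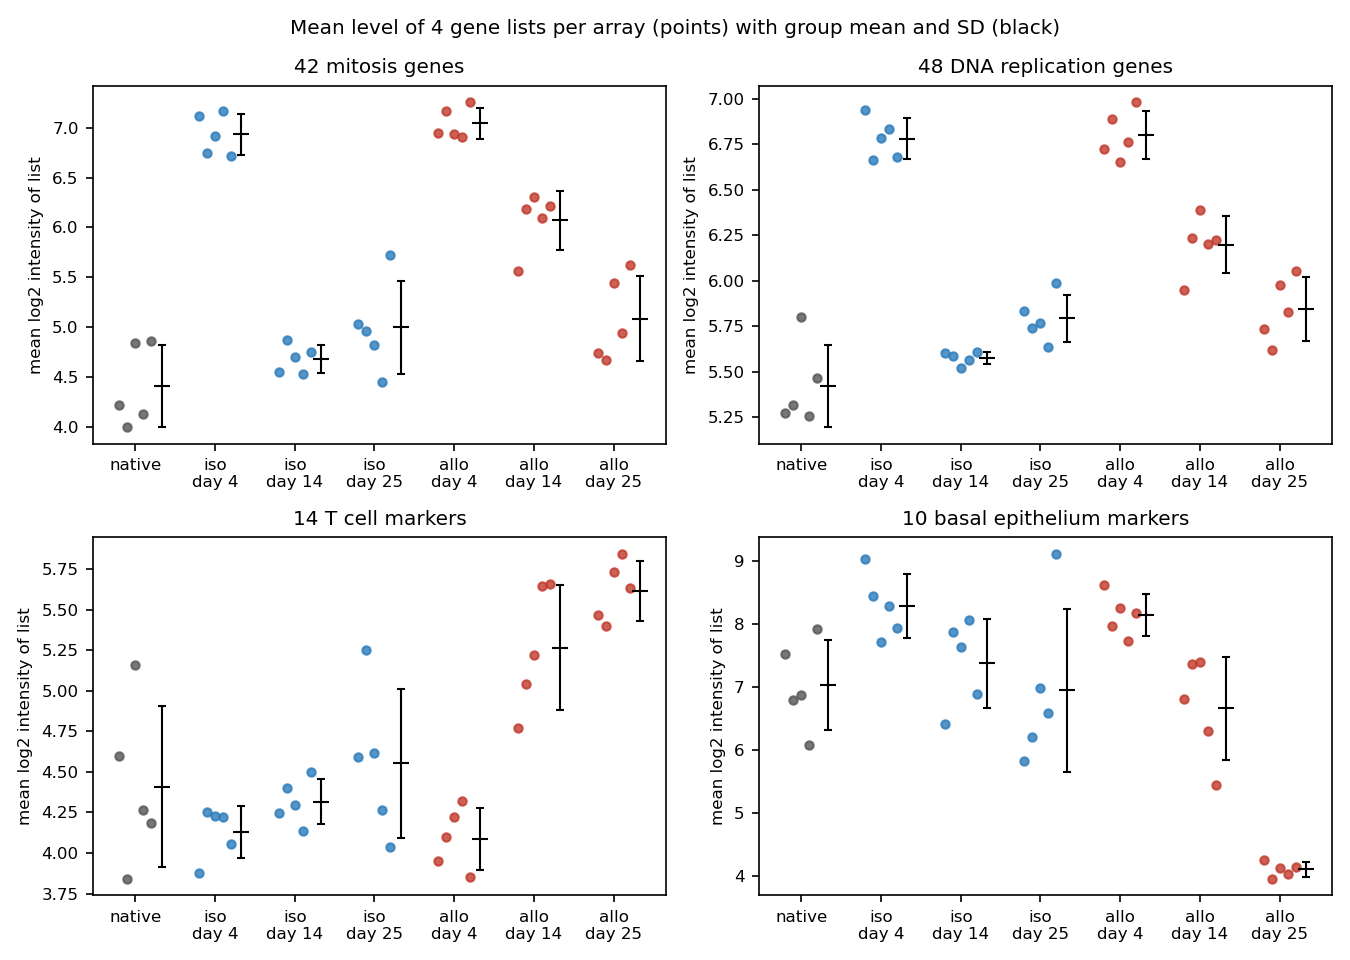
Mean log2 intensity per array (points) of the 42 members, 48 DNA replication genes, 14 T cell markers and 10 basal epithelium markers, with group mean and SD (black, n = 5 arrays). Vertical axes differ between panels and do not start at 0. The mitosis and replication panels both peak at day 4 in both grafts, while the T cell panel is highest in day 25 allografts and the basal panel lowest there.

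Markers of other cells moved with these comparisons. Between the grafts at day 14, 6.85% of all genes were higher in allografts and 6.96% lower. Of 14 measured T cell markers 6 were higher and 0 lower. Their mean level was 4.14 to 4.50 in isograft and 4.77 to 5.66 in allograft arrays, where 2 of the 14 still had a mean under 4. Of 15 cytotoxic and NK cell markers 12 were higher, at 3.95 to 4.17 against 5.24 to 6.30. Of 18 macrophage markers 9 were higher, at 8.47 to 8.71 against 9.19 to 9.84. Secretory epithelium markers were lower for 11 of 12, at 10.8 to 11.4 in isografts and 4.28 to 6.52 in allografts, and basal epithelium markers were lower for 6 of 10. The part of these cells in the members' day 14 difference was not tested.

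At day 25, when 1 member was called between the grafts, 4.49% of all genes were higher in allografts. So were 7 of 14 T cell markers and 12 of 15 cytotoxic and NK cell markers. T cell markers were at 5.40 to 5.85 in allografts against 4.035 to 5.25 in isografts. Cytotoxic and NK cell markers were at 5.35 to 6.09 against 3.68 to 4.39. Basal epithelium markers had mean levels of 3.96 to 4.26 in allografts against 5.82 to 9.11 in isografts, where replicate 5 was the highest. At day 4 against native trachea, 28.1% of all genes rose and 20% fell in isografts. In allografts 15.6% rose and 18.1% fell. Macrophage markers rose for 14 of 18 in each graft. Their levels were 8.96 to 9.45 in isografts and 9.12 to 9.66 in allografts against 6.62 to 7.17 in native arrays. Fibroblast and matrix markers rose for 10 of 14 in isografts and 9 in allografts, at 11.03 to 11.41 and 10.99 to 11.55 against 9.98 to 10.53 in native arrays. Cytotoxic and NK cell markers rose for 8 of 15 in each, at 4.06 to 4.43 and 4.31 to 4.95 against 3.22 to 3.62. Neutrophil markers rose for 5 of 9 in isografts and 4 in allografts, and 1 fell in each, at 6.43 to 6.76 and 6.26 to 6.7 against 4.75 to 5.27. Basal epithelium markers rose for 5 of 10 and 4 of 10, and 1 fell in each, at 7.71 to 9.03 and 7.72 to 8.62 against 6.08 to 7.93. T cell markers gave 0 rises and 2 falls in each graft at day 4. Secretory markers fell for 11 of 12 in each. The part of these cells in the day 4 rise of the members was not tested.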

How the data were processed

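The deposited values are log2 intensities that the authors made with GCRMA 1.1.3, per the submitters' processing notes. GCRMA subtracts a modelled background, normalizes arrays and summarises probe sets, and its settings are not given in the sources used here. Per the labels, total RNA was extracted with TRIzol, cleaned on columns and made into biotinylated cRNA. Of 22690 probe sets, 64 controls were removed. Of the 22626 left, 20380 named 1 gene in the platform annotation, 691 several and 1555 none, and only the first kind were read as genes.

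All 35 arrays were fitted in 1 model of 7 groups with limma 3.58.1 in R 4.3.3 (lmFit, eBayes with an intensity trend, 28 residual degrees of freedom). No filter was set, so every measured member was tested; 40 of the 42 would pass one of log2 5 in 5 arrays. Benjamini-Hochberg adjustment ran over all probe sets of a comparison, and the call threshold was an adjusted p under 0.05. The fit was tested on simulated data. Precision is limited by the 5 arrays of a group.

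The members, gene lists and tests were chosen with earlier results of these data known. Named were 9 measured members in every array (Mki67, Top2a, Cdk1, Aurkb, Birc5, Plk1, Bub1, Cdc20 and Kif11), the 4 largest called rises and falls of each comparison, any member called against the rest, and the 4 largest called among other mitosis genes. Further values of Pttg1, Anln and Ncapd2 were chosen after they were seen. Promoter windows are RefSeq's, the first listed for a gene. Alternatives covered filters, variance models, array weights, scaling, a replicate-number block, fits to the compared groups alone, thresholds, the mean of probe sets and leaving out arrays.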

Additional observations from a re-analysis of the deposited data

Results flagged for a closer look

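In 70 groups of 5 arrays examined for single genes, 6 had 1 array far from the others by Dixon's test, and chance marks about 1 in 20. Aurkb read 4.93 in native replicate 5, against 3.93 to 4.15 in the other native arrays. Aurkb also read 6.43 in day 4 allograft replicate 5, against 5.40 to 5.70. Plk1 read 5.90 in day 25 isograft replicate 5, against 3.93 to 4.25, and 4.85 in day 25 allograft replicate 5, against 4.04 to 4.08. In day 14 allograft replicate 1, Mki67 read 6.87 against 8.25 to 8.51, and Birc5 read 6.33 against 7.05 to 7.14. The native and the day 25 isograft array are those with the lowest correlation with their own groups.

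The allograft-isograft difference itself differed between days by limma's interaction test, for 16 members between days 4 and 14, all with a larger difference at day 14, and for 7 members between days 14 and 25, all with a smaller difference at day 25.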

How the results depend on the processing

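Over 15 counts of called members, leaving out each array in turn gave 0 to 0 for allografts against isografts at day 4, 31 to 34 at day 14 and 1 to 2 at day 25. Against native trachea it gave 42 to 42, 2 to 10 and 3 to 14 for isografts at days 4, 14 and 25, and 41 to 42, 36 to 40 and 12 to 25 for allografts. Between days it gave 40 to 41 and 0 to 0 in isografts, 11 to 20 and 9 to 24 in allografts, and 10 to 19 and 3 to 16 for the interactions of days 14 and 4 and of days 25 and 14.

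The day 25 count between grafts was 2, not 1, with array weights, with median centring, with the mean of probe sets, with both arrays that stood apart left out and with the replicate block. Day 14 isografts against native gave 15 with array weights, 16 with median centring, 11 without both arrays, 2 in the fit of the compared groups alone or at 2-fold, and 1 at an adjusted p under 0.01. Day 25 isografts against native gave 11 with the replicate block, 4 at 2-fold, and 2 in the compared groups alone or under 0.01. Day 25 allografts against native gave 28 with array weights and 9 under 0.01. In allografts, day 14 against day 4 gave 30 with array weights and 10 under 0.01, and day 25 against day 14 gave 6 in the compared groups alone and 9 under 0.01. The interaction of days 14 and 4 gave 28 with array weights and 7 under 0.01. That of days 25 and 14 gave 12 with the log2 5 filter or with centring on reference genes, 14 with the replicate block, 4 without both arrays, 3 under 0.01 and 1 in the compared groups alone.

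With the log2 7 filter, which tests fewer members, the counts were 18 between grafts at day 14, 19 for each graft against native at day 4, 18 for day 14 allografts against native, 19 for isografts from day 4 to 14, and 9 for allografts from day 14 to 25. The other causes were not tested. Of single-gene results under all alternatives, 14781 kept direction and call, 325 gained a call, 479 lost one and 0 called values changed sign. Median centring shifted the median of all genes by 0.14, 0.17 and 0.13 for day 4 isografts, day 14 isografts and day 14 allografts against native and by -0.13 for isografts from day 14 to 25. Centring on reference genes shifted it by -0.19 and -0.14 for day 4 isografts and allografts against native and by 0.20 for isografts from day 4 to 14.

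The replicate numbers were not taken as pairs. Over 105 pairs of arrays with the same number in different groups, the correlation of deviations from group means had a median of 0.04 (-0.44 to 0.45), and 7 of 35 arrays correlated best with their own number. The replicate block changed no other count by over 1.5 times. Members near background, such as Cenpe and Ndc80, limit what these arrays can show.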
